A study of Mus musculus with 30 samples.

Results

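Quiescent satellite cells (QSCs), the resting stem cells of skeletal muscle, were compared between old and young mice. All 3 arrays of old QSCs and all 3 arrays of young QSCs that the labels give for cells sorted by surface proteins entered the comparison, 6 of the 30 arrays of the series, with all 19938 genes that a probe set measured alone. Both groups came from uninjured hindlimb muscle of wild-type C57BL6 mice and were sorted as VCAM+ and CD31-, CD45- and Sca1- cells, called VCAM QSCs here. The old mice were 22 to 24 months of age and the young mice 2 to 3 months. A second set of young QSCs, also 3 arrays, was sorted for YFP from uninjured Pax7CreER/+;ROSA26eYFP/+ mice of 2 to 3 months that had received tamoxifen, so that YFP marked cells in which Cre expressed from Pax7 had acted. These young YFP QSCs are set beside the old cells below, but they differ from them in genotype, treatment and sort as well as in age. They also differ in sex-linked genes, given below, and the labels give no sex. Activated satellite cells (ASCs) were taken 60 h after BaCl2 injury in old and young wild-type mice and 36 h after it in young YFP mice, with 3 arrays in each group. The arrays were Affymetrix Mouse Gene 1.0 ST, and a level is the log2 intensity of a probe set after RMA, so that 1 unit is a doubling. Nothing in the labels ties the 3 arrays of a group to separate animals, so the p-values measure only the spread between these arrays, which may be technical.

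Satellite cells lie between the muscle fibre and its basal lamina and express the transcription factor Pax7. They stay out of the cell cycle until injury, and Notch signalling from neighbouring cells, through Hes and Hey repressors, holds them at rest. When muscle is injured they enter the cycle, divide and either fuse into fibres or return to rest. In old muscle the same cells number fewer and repair injury less well, and the study asked how their expression and their chromatin, above all the repressive mark H3K27me3 and the histone genes, change with age. In RNA from sorted cells, fewer cells of a type and less RNA per cell cannot be told apart.

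The 6 arrays had medians of 7.14 to 7.16, correlated at 0.9965 to 0.9977 within a group and at 0.9832 to 0.9853 between the groups, and the first principal component, with 76.1% of the variance, separated old from young. The within-group SD of a gene, pooled over the 10 groups and all 30 arrays of the series, had a median of 0.1 and a maximum of 0.384 (log2). Vcam1 and Pax7, which mark satellite cells, were well above the array medians in both groups, but Vcam1 was selected by the sort. Markers of other cells were also present and are described below. Vcam1, the protein of the sort, had levels of 12.82, 12.90 and 12.87 in old QSCs, against 12.87, 12.83 and 12.86 in young QSCs. Pax7 had 11.11, 11.15 and 11.08 in old QSCs, against 11.60, 11.70 and 11.73 in young QSCs, with young YFP QSCs at 10.91 to 11.09. The CD45 gene Ptprc lay at 6.21 to 6.43 in old QSCs and 6.05 to 6.37 in young QSCs, near the dim end of the arrays, whereas the CD31 gene Pecam1 lay higher, at 9.76 to 9.80 in old QSCs and 9.54 to 9.63 in young QSCs.

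Calls required a fold of at least 1.5 and a limma p that stayed under 0.05 after Benjamini-Hochberg adjustment. Old QSCs had 606 genes higher (3.04% of the 19938 tested) and 938 genes lower (4.7%) than young QSCs. The fold threshold set both counts, because every gene past it also passed the adjusted p. By the adjusted p alone 3323 genes were higher (16.7%) and 4248 lower (21.3%), and at a fold of at least 2 the counts were 152 and 129, so the larger side turns with the threshold. The arrays of the groups did not overlap for any called gene, and over all genes the old arrays lay wholly above the young ones for 21% and wholly below for 23.5%. The called rises had a median size of 0.75 and reached 3.03, and the falls had a median size of 0.73 and reached 2.01 (log2 difference, old minus young). In 464 of the 606 risen genes the old arrays also lay above all 3 young YFP arrays, and in 750 of the 938 fallen genes they lay below them. In the other called genes at least 1 young YFP array came within or past the old arrays. The old arrays that gave the calls enter these counts too, so they are not an independent check. The matching share over all genes was not taken. Against young YFP QSCs in the same fit, old QSCs had 373 genes higher (1.87%) and 354 lower (1.78%), and the 2 comparisons share the old arrays. The second young set also stood apart in sex-linked genes. Xist, the RNA that silences an X chromosome in females, had 11.48, 11.43 and 11.25 in young YFP QSCs. It had 5.29 to 5.34 in old QSCs and 5.33 to 5.36 in young VCAM QSCs. Of 4 sex-linked genes, Xist and the Y-linked Eif2s3y, Kdm5d and Uty, 2 were called higher and 1 lower in old against young YFP QSCs. The part of sex in the comparisons with YFP cells was not tested.

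**Figure D1:**
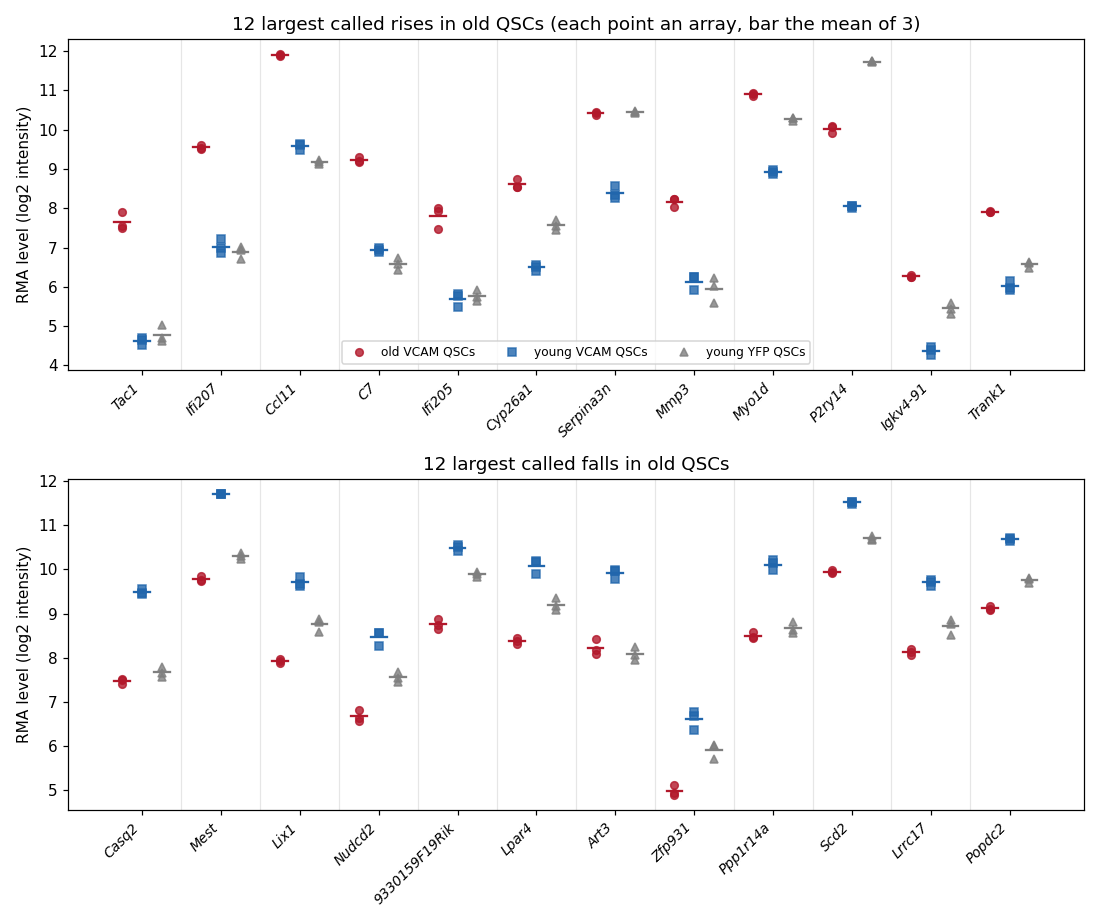
Log2 RMA level (y axis) of the 12 largest called rises (top) and the 12 largest called falls (bottom) in old against young QSCs, with a point per array and a bar for the mean of 3 arrays. Old VCAM QSCs (red) and young VCAM QSCs (blue) do not overlap for any gene, while young YFP QSCs (grey) lie close to the old arrays for Serpina3n (10.43 to 10.47) and Casq2 (7.57 to 7.79) and above them for P2ry14 (11.72 to 11.75).

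The 12 largest rises ran from 8.15-fold to 3.73-fold. Tac1, which encodes the precursor of the neuropeptide substance P, had levels of 7.90, 7.50 and 7.56 in old QSCs, against 4.70, 4.65 and 4.52 in young QSCs, a difference of 3.03 ± 0.13 (SE, adjusted p = 5.0e-16) or 8.15-fold. All 3 old arrays were far above both young sets, since young YFP QSCs had 4.61 to 5.04. Ifi207 and Ifi205, interferon-inducible genes of the AIM2-like family, were 5.79-fold and 4.34-fold higher. Ifi207 had 9.62, 9.50 and 9.54 in old QSCs and 6.87, 6.98 and 7.21 in young QSCs, and Ifi205 averaged 7.80 ± 0.28 in old QSCs and 5.69 ± 0.17 in young QSCs (SD, n = 3 each). These genes have close relatives on chromosome 1, and a probe set may take up signal from more than one of them. Ccl11, the eosinophil attractant eotaxin, had 11.93, 11.87 and 11.90 in old QSCs, against 9.48, 9.63 and 9.61 in young QSCs, 5.02-fold higher. The terminal complement component C7 was 4.86-fold higher and the matrix protease Mmp3 4.08-fold higher.

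The other 6 of the 12 behaved unevenly against the second young set. Cyp26a1, which degrades retinoic acid and rose 4.35-fold, had 8.74, 8.55 and 8.55 in old QSCs and 6.56, 6.41 and 6.51 in young QSCs, with young YFP QSCs in between at 7.45 to 7.69. Myo1d, an unconventional myosin, rose 3.95-fold, and Trank1 rose 3.73-fold. Igkv4-91, an immunoglobulin light chain segment, rose 3.74-fold but stayed dim, at 6.26 to 6.31 in old QSCs and 4.27 to 4.46 in young QSCs. The protease inhibitor Serpina3n had 10.46, 10.37 and 10.42 in old QSCs, against 8.26, 8.57 and 8.35 in young VCAM QSCs and 10.43 to 10.47 in young YFP QSCs. P2ry14, a receptor for UDP-glucose, had 10.10, 10.06 and 9.91 in old QSCs, against 8.01, 8.06 and 8.07 in young VCAM QSCs, but 11.72 to 11.75 in young YFP QSCs. For Serpina3n and P2ry14 the difference with age therefore turns on which young cells are compared.

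The largest falls held muscle genes, an imprinted gene and a lipid enzyme. Casq2, the calcium store protein of cardiac and slow muscle, had 7.50, 7.52 and 7.41 in old QSCs, against 9.45, 9.46 and 9.55 in young VCAM QSCs, a difference of -2.01 ± 0.11 (SE, adjusted p = 1.9e-13). Young YFP QSCs had 7.57 to 7.79 for Casq2, close to the old arrays. Mest, an imprinted gene expressed from the paternal allele, had 9.85, 9.77 and 9.73 in old QSCs, against 11.70, 11.70 and 11.71 in young QSCs, 3.78-fold lower in the old cells. Young YFP QSCs lay nearer the old level for Mest, at 10.23 to 10.38. Scd2, a stearoyl-CoA desaturase, was 2.98-fold lower, at 9.91 to 9.98 in old QSCs and 11.49 to 11.54 in young QSCs. Popdc2, a membrane protein of striated muscle, was 2.95-fold lower, and Lpar4, a receptor for lysophosphatidic acid, 3.27-fold lower. Lix1, Nudcd2, 9330159F19Rik, Art3, Zfp931, Ppp1r14a and Lrrc17 completed the 12, at 2.97-fold to 3.45-fold lower, and among them Art3 had young YFP levels of 7.94 to 8.24 beside 8.09 to 8.43 in old QSCs.

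Genes that mark satellite cells were lower in old QSCs where they passed the test at all. Of 21 satellite cell markers, 5 fell and 0 rose, with a median difference of -0.40 against 0.02 over all genes. Calcr, the calcitonin receptor of resting satellite cells, averaged 11.19 ± 0.02 in old QSCs and 12.03 ± 0.04 in young QSCs (SD, n = 3 each), 1.78-fold lower. Chodl, a membrane lectin, was 1.62-fold lower, the laminin receptor subunit Itga7 1.92-fold lower, and Spry1, which dampens growth factor signalling at rest, 1.64-fold lower, and the fifth was the Notch target Heyl, described below. Against young YFP QSCs, at 10.99 to 11.17 for Spry1, the old levels of 11.03 to 11.08 overlapped, and none of the 21 markers was called. Of 13 myogenic transcription factors only Myog and Six4 were called, both lower. Myog, which drives terminal differentiation, had 6.63, 6.80 and 6.70 in old QSCs, against 7.89, 7.64 and 7.71 in young QSCs. Myf5 and Myod1 stayed within the fold threshold, at -0.46 and 0.41.

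Of the Notch genes, 1 ligand, 4 modifiers and 4 targets were lower in old QSCs. The receptor is cut by the protease Adam10 and then by the gamma-secretase complex, to which Ncstn and Psen2 belong, and its freed part switches on Hes and Hey genes. The ligand Dll1 had 7.83, 7.83 and 7.70 in old QSCs, against 8.83, 8.85 and 8.82 in young QSCs, 2.06-fold lower, while the other 3 ligands and all 4 receptors were not called. Adam10 was 1.69-fold, Ncstn 1.84-fold and Psen2 1.61-fold lower, as was the regulator Dtx4 at 2.37-fold. The coactivator Maml2 rose 1.51-fold, and the other 12 of 17 Notch modifiers were not called. Of 6 targets 4 fell, with a median of -0.82. Heyl had 9.47, 9.48 and 9.49 in old QSCs, against 10.69, 10.89 and 10.88 in young QSCs (2.54-fold lower, adjusted p = 1.7e-15), and Hes1 had 10.04, 10.07 and 10.13 in old QSCs, against 11.27, 11.30 and 11.32 in young QSCs (2.33-fold lower). Hey1 and Hey2 were 1.84-fold and 1.69-fold lower. The young YFP arrays lay between the groups for Dll1, Heyl, Hes1, Hey1 and Dtx4, and no Notch gene on these lists was called in old against young YFP QSCs.

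**Figure D2:**
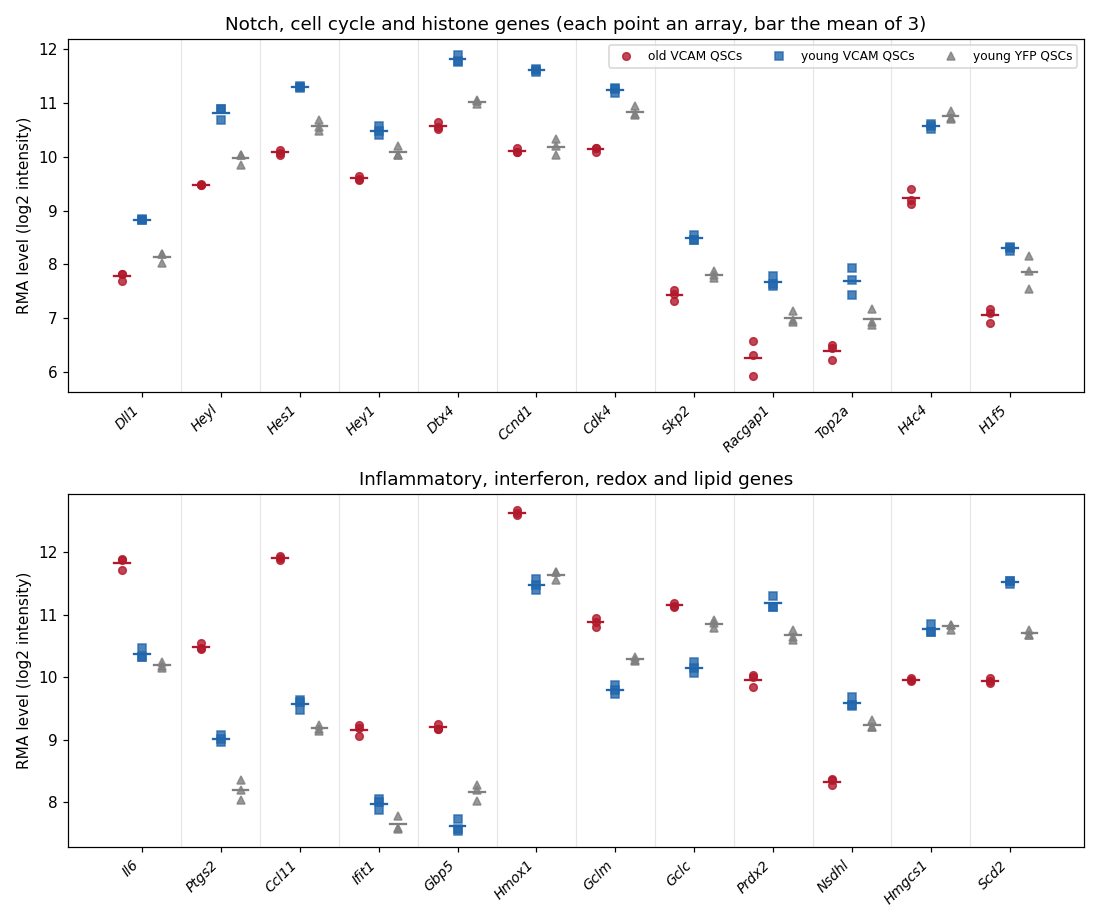
Log2 RMA level (y axis) of 12 Notch, cell cycle and histone genes (top) and 12 inflammatory, interferon, redox and lipid genes (bottom), with a point per array and a bar for the mean of 3 arrays. In the top panel the old VCAM arrays (red) are below the young VCAM arrays (blue) for every gene, and young YFP QSCs (grey) overlap the old arrays for Ccnd1. In the bottom panel Hmgcs1 has both young sets at 10.72 or more and the old arrays at 9.99 or less.

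Several genes of the cell cycle were lower in old QSCs, although both groups were labelled quiescent. Ccnd1, the cyclin that starts the exit from rest, had 10.09, 10.08 and 10.16 in old QSCs, against 11.63, 11.58 and 11.61 in young QSCs, 2.83-fold lower. Its partner kinase Cdk4 was 2.15-fold lower, at 10.08 to 10.17 in old QSCs and 11.19 to 11.28 in young QSCs. Skp2, which marks the inhibitor p27 for destruction, was 2.06-fold lower, yet Cdkn1b, the gene of p27, was also lower, by 1.73-fold. Of 16 cyclins, kinases, E2F and Rb genes 6 fell and 0 rose, and of 6 inhibitors Cdkn1b and Cdkn2c fell. With young YFP QSCs as the young set, 1 of the 16 was called lower and 1 higher. Of the inhibitors 2 were called lower there, but Cdkn1b was not (-0.36, log2). Cdkn2a, which encodes p16 and rises in senescent cells, had 6.64, 6.50 and 6.79 in old QSCs, against 6.71, 6.40 and 6.69 in young QSCs, and the arrays overlapped (difference 0.05 ± 0.09, SE). Ccnd1 had 10.04 to 10.32 in young YFP QSCs, overlapping the old arrays, while Cdk4 had 10.77 to 10.94 there and lay above them.

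Genes of mitosis fell in larger number. Of 29, 16 fell (55.2%), 0 rose, and the median was -0.71. Racgap1, needed for the last cut between daughter cells, had 6.31, 6.57 and 5.93 in old QSCs, against 7.60, 7.63 and 7.78 in young QSCs, 2.63-fold lower. Top2a, the topoisomerase of dividing cells, had 6.23, 6.44 and 6.50 in old QSCs, against 7.44, 7.72 and 7.93 in young QSCs, 2.47-fold lower, and the condensin subunits Smc4 and Smc2 were 2.28-fold and 2.26-fold lower. All 29 genes rose in 36 h YFP ASCs against YFP QSCs, where 10.1% of all genes were called higher, and Top2a rose by 3.99 (log2) there. In old against young YFP QSCs 6 of the 29 were called lower and 1 higher. DNA replication genes moved less, with 3 of 28 lower, namely Dctd, Hells and Prim1, and a median of -0.08, although 26 of the 28 rose at 36 h.

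The upstream sequence of Top2a shows the element that mitotic genes share, the CCAAT box bound by the factor NF-Y, searched as CCAAT and ATTGG. The 200 bases before the start in the promoter table (RefSeq, GRCm38.p6, chr11:99024190-99024389, minus strand, 5′ to 3′) are printed with the matches in capitals.
Top2a: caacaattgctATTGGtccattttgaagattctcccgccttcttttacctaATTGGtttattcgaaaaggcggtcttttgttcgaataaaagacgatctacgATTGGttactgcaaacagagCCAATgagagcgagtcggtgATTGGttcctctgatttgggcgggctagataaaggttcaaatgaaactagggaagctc
The gene record of Top2a begins within the window, so that its last 10 bases lie inside the gene. The 200 bases hold 5 matches, the nearest starting 58 bases and the farthest 189 bases before the start. Within 250 bases, 19 of the 24 mitosis genes with a listed promoter had at least 1 match (79.2%), as did 11 of the 13 fallen ones, against 37.5% of the 27025 genes with a listed promoter.

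The replication-dependent histone genes supply nucleosomes in S phase, and the study followed them with age. Of 28 such genes 6 were lower (21.4%) and 0 higher, with a median of -0.26. The study listed more histone genes as reduced, H3 genes among them. Its cut-off asked for a larger fall than the fold threshold used here, and the reason for its longer list was not tested. Probe sets shared by several genes were left out here. H4c4 had 9.19, 9.41 and 9.12 in old QSCs, against 10.61, 10.57 and 10.51 in young QSCs, 2.5-fold lower, and young YFP QSCs had 10.70 to 10.84. The linker histone gene H1f5 had 7.10, 6.92 and 7.17 in old QSCs, against 8.25, 8.33 and 8.31 in young QSCs, 2.35-fold lower. H4c6, H2bc8, H1f1 and H2bc3 were 1.6-fold to 1.72-fold lower, and against young YFP QSCs 7 of the 28 were called lower. Their coding sequences are close copies within each class, so signal may be shared between probe sets. All 6 fallen genes lie on chromosome 13, but the share of the 28 listed genes that lie there was not counted. Hfe, an iron-handling gene inside the histone cluster on that chromosome, had 7.42, 7.62 and 7.18 in old QSCs, against 7.90, 7.90 and 7.85 in young QSCs (difference -0.48 ± 0.10, SE, under the fold threshold). Of 9 histone variant genes 0 were called.

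Among the writers and erasers of chromatin marks few genes passed. Ezh2, the H3K27 methyltransferase, had 9.79, 9.83 and 9.75 in old QSCs, against 9.80, 9.90 and 9.79 in young QSCs, and the groups overlapped. Kdm6b, which removes the same mark and is also called Jmjd3, had 12.30, 12.29 and 12.29 in old QSCs, against 11.59, 11.62 and 11.70 in young QSCs, 1.58-fold higher, the only call among 13 genes of the Polycomb 2 complex and its opponents. Young YFP QSCs had 11.77 to 11.89 for Kdm6b and lay nearer the young arrays, but Kdm6b was not called against them (0.47, log2). Tet1, which oxidises methylated cytosine, was the only call among 10 DNA methylation genes and was 2.35-fold lower. Against young YFP QSCs 0 of the 10 were called. Of 37 Hox genes 4 fell (10.8%, beside 4.7% of all genes), among them Hoxc9 and Hoxa10, and the list median was 0.01. Against young YFP QSCs 0 of the 37 were called. Hoxa10 had 7.35 to 7.51 in young YFP QSCs, beside 7.17 to 7.35 in old QSCs.

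Some genes that lie together fell together. Of 22 beta protocadherins, adhesion genes in a single cluster on chromosome 18, 14 fell (63.6%), 0 rose and the median was -0.69. Pcdhb10 averaged 5.95 ± 0.08 in old QSCs and 7.24 ± 0.08 in young QSCs (SD, n = 3 each), 2.44-fold lower, and 11 of the 22 were also called lower against young YFP QSCs. They are dim and alike in sequence, which may join their signals. Of 23 imprinted genes 5 fell and 0 rose. These were Mest, the non-coding RNA Rian at 2.43-fold lower, the amino acid transporter gene Slc38a4 at 2.37-fold lower, Copg2 at 2.32-fold lower and Grb10 at 1.6-fold lower. Copg2 shares 913 bases with Mest on chromosome 6, so their signals may not be separate. Slc38a4 had 7.95, 8.07 and 7.88 in old QSCs, 9.19 to 9.23 in young VCAM QSCs and 7.85 to 8.04 in young YFP QSCs, so that the old and YFP arrays overlapped.

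Interferon-stimulated genes rose in old QSCs. Of 32 genes 13 rose (40.6%), 0 fell and the median was 0.38. The guanylate-binding protein gene Gbp5 had 9.18, 9.25 and 9.17 in old QSCs, against 7.54, 7.57 and 7.74 in young QSCs, 3.0-fold higher. Ifit1, which binds foreign RNA, had 9.06 to 9.24 in old QSCs, against 7.88 to 8.06 in young QSCs, 2.27-fold higher, and Iigp1, Ifi203 and Isg20 rose 2.56-fold, 2.37-fold and 2.24-fold. Irgm1, a GTPase against microbes inside the cell, rose 1.78-fold. Against young YFP QSCs 15 of the 32 were called higher. Of 10 class I antigen presentation genes H2-Q4 alone rose, 2.14-fold, and of 6 class II genes Cd74 alone, 1.92-fold.

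Interferon acts on these genes through a response element, searched as 2 copies of GAAA with any 2 bases between them, or of TTTC on the other strand, which is shown in capitals for 4 genes that rose. The windows are the 200 bases before the RefSeq start in GRCm38.p6, 5′ to 3′ on the strand of the gene. They lie at chr19:34640689-34640888 (plus) for Ifit1, chr3:142496734-142496933 (plus) for Gbp5, chr1:174031756-174031955 (minus) for Ifi205 and chr11:48871421-48871620 (minus) for Irgm1.
Ifit1: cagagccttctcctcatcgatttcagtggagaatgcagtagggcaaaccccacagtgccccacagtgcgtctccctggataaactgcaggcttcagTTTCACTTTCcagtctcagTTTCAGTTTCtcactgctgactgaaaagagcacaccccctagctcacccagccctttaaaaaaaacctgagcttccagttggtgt
Gbp5: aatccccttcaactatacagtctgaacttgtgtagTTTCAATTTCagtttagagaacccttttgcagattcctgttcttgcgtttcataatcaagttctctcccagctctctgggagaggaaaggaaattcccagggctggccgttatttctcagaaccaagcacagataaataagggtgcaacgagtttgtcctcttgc
Ifi205: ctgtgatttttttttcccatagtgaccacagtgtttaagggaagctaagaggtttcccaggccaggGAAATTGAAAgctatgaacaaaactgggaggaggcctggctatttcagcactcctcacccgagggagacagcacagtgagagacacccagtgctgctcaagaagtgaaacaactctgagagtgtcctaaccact
Irgm1: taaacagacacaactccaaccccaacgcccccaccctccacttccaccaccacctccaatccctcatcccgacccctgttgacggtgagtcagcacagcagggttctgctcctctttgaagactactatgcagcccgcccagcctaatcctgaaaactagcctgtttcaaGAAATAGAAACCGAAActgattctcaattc
Ifit1 holds 2 separate matches and Irgm1 2 that overlap. Within 250 bases, 14 of the 25 interferon genes with a listed promoter had a match (56%), as did 8 of the 10 risen ones, against 3.46% of all 27025 genes. A match describes the letters and not the binding of a factor.

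Genes of inflammation rose beside them. Of 27 cytokine and inflammation genes 11 rose and 0 fell, with a median of 0.47, and of 34 chemokine genes 11 rose and 0 fell, with a median of 0.18. Il6 had 11.89, 11.88 and 11.72 in old QSCs, against 10.32, 10.46 and 10.33 in young QSCs, 2.75-fold higher, and Ptgs2, the inducible enzyme of prostaglandin synthesis, had 10.54, 10.46 and 10.45 in old QSCs, against 9.02, 9.08 and 8.96 in young QSCs, 2.76-fold higher. Il33, an alarmin of barrier and stromal cells, rose 3.56-fold, Hgf, the factor that wakes satellite cells through Met, rose 3.07-fold, and Gdnf, a survival factor of motor neurons, rose 2.76-fold. Young YFP QSCs lay below the old arrays for all 5, and closest for Gdnf, at 10.27 to 10.30 beside 10.79 to 10.85 in old QSCs. Among chemokines Ccl3 rose 2.86-fold, Cxcl5 2.71-fold and Cxcl14 2.35-fold. Cxcl5 had 8.41 to 8.46 in old QSCs and 6.88 to 7.10 in young QSCs, but 8.34 to 8.42 in young YFP QSCs. Of 17 complement genes C7, C4b and Masp1 rose, by 4.86-fold, 2.72-fold and 1.64-fold. Il6ra, the receptor subunit for Il6, rose 1.69-fold, while Map2k6, a kinase that activates p38, was 2.04-fold lower.

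The genes of redox defence divided. Glutathione is built by Gclc and Gclm, and the factor Nrf2 drives both, with Hmox1, Txnrd1 and Srxn1, through the antioxidant response element. Of 32 glutathione and thioredoxin genes 9 rose and 3 fell. Hmox1, which breaks down haem, had 12.60, 12.62 and 12.67 in old QSCs, against 11.40, 11.47 and 11.57 in young QSCs, 2.23-fold higher. Gclm had 10.94, 10.89 and 10.81 in old QSCs, against 9.73, 9.88 and 9.80 in young QSCs, 2.11-fold higher, and Gclc was 2.0-fold, Me1 1.86-fold, Txnrd1 1.82-fold and Srxn1 1.81-fold higher. The 3 that fell break down peroxide, with Prdx2 2.33-fold lower, mitochondrial Prdx3 1.99-fold lower and Cat, the catalase gene, 1.57-fold lower, while the related Prdx1 (-0.08, log2), Prdx4 (-0.32), Gpx1 (-0.06), Gpx3 (0.09) and Gpx4 (0.12) were not called. Young YFP QSCs were close to the old arrays for Srxn1 (10.81 to 10.92 beside 10.89 to 10.96 in old QSCs) and Me1 and far below them for Hmox1 (11.55 to 11.68), and only 2 of the 32 were called higher against them.

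For Gclm, the 200 bases before the start in the promoter table (RefSeq, GRCm38.p6, chr3:122245357-122245556, plus strand, 5′ to 3′) are shown with the match to the antioxidant element in capitals, searched as TGACNNNGC and GCNNNGTCA. The gene record of Gclm begins farther upstream, so that the last 70 bases shown lie inside it.
Gclm: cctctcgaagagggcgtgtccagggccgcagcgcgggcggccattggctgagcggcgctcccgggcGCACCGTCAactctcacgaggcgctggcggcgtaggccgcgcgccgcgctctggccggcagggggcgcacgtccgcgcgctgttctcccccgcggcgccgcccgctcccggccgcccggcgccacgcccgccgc
Of the 27 list genes with a listed promoter 7 had a match within 250 bases (25.9%), among them the risen Gclm, Txnrd1 and Nfe2l2, the gene of Nrf2, against 11.5% of all genes.

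Genes of cholesterol synthesis were lower. Of 20 genes 9 fell (45%), 0 rose and the median was -0.48, and against young YFP QSCs 13 fell and 0 rose. Nsdhl, which removes methyl groups from lanosterol, had 8.36, 8.27 and 8.37 in old QSCs, against 9.54, 9.55 and 9.69 in young QSCs, 2.39-fold lower. Lss, the cyclase that makes lanosterol, was 1.91-fold lower, Fdft1 1.86-fold, Msmo1 1.81-fold and Hmgcs1, the first enzyme particular to the pathway, 1.74-fold lower. Hmgcs1 had 9.99, 9.96 and 9.94 in old QSCs, 10.72, 10.85 and 10.72 in young VCAM QSCs and 10.76 to 10.84 in young YFP QSCs. Of 11 fatty acid synthesis genes the desaturases Scd2, Scd1 and Fads2 fell. Here Fads2 had 8.57 to 8.77 in young YFP QSCs, below or at the old levels of 8.76 to 8.94.

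Sterol synthesis is under the factor SREBP2, whose element was searched as TCACNCCA and TGGNGTGA and is shown for Hmgcs1 (200 bases before the start, RefSeq, GRCm38.p6, chr13:119690151-119690350, plus strand, 5′ to 3′).
Hmgcs1: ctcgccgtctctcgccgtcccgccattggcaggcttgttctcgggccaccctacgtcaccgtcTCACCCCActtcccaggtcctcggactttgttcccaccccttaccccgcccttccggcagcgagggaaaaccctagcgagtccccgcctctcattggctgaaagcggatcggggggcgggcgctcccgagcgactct
A match lay within 250 bases in 3 of the 16 list genes with a listed promoter (18.8%), against 4.2% of all genes, and Msmo1 was the other fallen gene with one.

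Energy and protein synthesis genes were called unevenly, beside 3.04% higher and 4.7% lower over all genes. Of 81 respiratory chain genes 10 fell (12.3%) and 0 rose, with a median of -0.27. The falls were led by Ndufa4l2 (-0.97, log2), which is also on the pericyte list. Ndufc2 and Ndufb5 of complex I were 1.87-fold and 1.72-fold lower. Of the 81, 1 was called lower against young YFP QSCs, where Ndufa4l2 was at 0.14. Of 55 ribosomal protein genes 0 were called. Of 24 ribosome biogenesis genes 5 rose (20.8%) and 0 fell, with a median of 0.47, led by Pprc1 at 2.17-fold and Nolc1 at 1.98-fold higher. In young YFP QSCs Pprc1 had 9.72 to 9.91, nearer to the old levels of 10.07 to 10.11 than to the 8.92 to 9.06 of young VCAM QSCs, and none of the 24 was called against them. Genes of heat shock (18) and autophagy (25) had 0 calls. Of 26 immediate early genes, which respond within minutes to cell isolation, Fosl1 and Nr4a2 rose and Egr2 and Ier2 fell (7.69% each way). None of the 26 was called against young YFP QSCs.

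Genes of growth arrest and repair that passed were mostly lower than in young VCAM QSCs. Of 13 senescence and p53-linked genes Sesn1, Trp53inp1 and Ccng1 fell, by 2.09-fold, 1.96-fold and 1.51-fold, and 0 rose, while against young YFP QSCs 0 were called lower and 1 higher. Of 23 DNA repair genes 7 fell, led by Rad1, a clamp of the damage checkpoint, at 1.97-fold and Pot1a, which covers telomere ends, at 1.94-fold lower, and 3 were called lower against young YFP QSCs. Rad18, a ligase of damage bypass, had 9.87, 9.73 and 9.83 in old QSCs, against 8.95, 8.91 and 8.84 in young VCAM QSCs, and was the single rise, but young YFP QSCs had 10.27 to 10.42. Among 15 clock genes Cry2, Per2 and Ciart rose and Dbp fell, by 1.52-fold to 1.68-fold. Ciart lost its call without old array 3 (0.52, log2) and Dbp without young array 1 (-0.57) and under quantile normalization (-0.54), and against young YFP QSCs Dbp was at 0.28.

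Matrix genes outside the collagens rose, while Col1a1 and Col3a1, of the fibrillar collagens, fell. Of 38 non-collagen matrix genes 20 rose (52.6%) and 2 fell, with a median of 0.61. Prg4, the lubricant of joints, had 10.51, 10.44 and 10.53 in old QSCs, against 8.63, 8.73 and 8.55 in young QSCs, 3.61-fold higher. Lox, which cross-links collagen, rose 3.57-fold, Thbs4, a matrix protein of tendon, 3.17-fold, Has2, which makes hyaluronan, 2.76-fold, and Tnc, a matrix protein of injured tissue, 2.66-fold. Sparc, a collagen-binding protein, was 1.88-fold lower, at 12.13 to 12.18 in old QSCs and 13.03 to 13.09 in young QSCs. Of 44 collagen genes 3 rose and 7 fell, but against young YFP QSCs 6 were called higher and 1 lower, so the balance of the list turns with the young set. Col3a1 had 11.35, 11.34 and 11.38 in old QSCs, against 12.70, 12.71 and 12.73 in young QSCs, 2.55-fold lower, whereas Col8a1 and Col12a1 rose 2.64-fold and 2.03-fold. Col1a1 was 1.6-fold lower than in young VCAM QSCs, at 11.13 to 11.24 beside 11.85 to 11.90, but young YFP QSCs had 10.39 to 10.40, so its direction turns with the young set. Of 20 matrix proteases and their inhibitors 6 rose and 1 fell. The inhibitor Timp1 rose 2.83-fold and the aggrecan-cutting protease gene Adamts4 1.87-fold.

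Signalling genes gave calls in both directions. Of 36 TGF-beta and bone morphogenetic protein genes 4 rose (11.1%) and 1 fell (2.78%), beside 3.04% and 4.7% of all genes. Bmpr1b, a receptor for bone morphogenetic proteins, rose 2.17-fold and Inhba, a subunit of activin, 1.97-fold. Igf1 had 8.60, 8.63 and 8.63 in old QSCs, against 9.77, 9.74 and 9.81 in young QSCs, 2.23-fold lower. Young YFP QSCs had 8.89 to 9.07 for Igf1, and 7.70 to 8.17 for Bmpr1b beside 8.17 to 8.27 in old QSCs. Against young YFP QSCs Igf1 and Bmpr1b were not called, while Inhba was still called higher (0.72, log2). Of 38 Wnt genes the secreted inhibitors Sfrp1 and Sfrp4 and the receptor Lgr5 rose, by 2.06-fold, 1.97-fold and 1.78-fold. Of 18 peptide genes Tac1 and Penk, the enkephalin precursor, rose, and Edn3, Tac4 and Nppc fell, by 2.4-fold, 2.11-fold and 1.9-fold. Tac4 and Tac1 are related peptide genes, and they moved in opposite directions. Against young YFP QSCs 2 of the 18 peptide genes were called higher and 0 lower, so Edn3, Tac4 and Nppc lost their call. Of the 38 Wnt genes 4 were called higher there and 0 lower.

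Of 17 genes of the muscle synapse and of fusion 4 fell, Popdc2 among them, and 0 rose. Chrna1, the acetylcholine receptor subunit of the muscle synapse, had 8.87, 8.83 and 8.68 in old QSCs, against 10.30, 10.36 and 10.22 in young QSCs, 2.82-fold lower. Rapsn, which clusters that receptor, and Mymk, which fuses myoblasts, were 1.52-fold and 1.54-fold lower. Young YFP QSCs had 8.93 to 9.06 for Chrna1, close to the old arrays, and it was not called against them (-0.21, log2). Of the 17 genes 1 was called lower against young YFP QSCs. Of 20 embryonic contractile genes Casq2, Actc1 and Acta2 fell. Of 22 adult fibre genes Atp2a1, Actn3 and Pygm fell and Ampd1 rose. Actn3, at 9.84 to 9.96 in old QSCs and 10.93 to 11.04 in young VCAM QSCs, was lower still in young YFP QSCs, at 9.56 to 9.72. The summed intensity of the 22 fibre genes was 4677 to 4894 in old QSCs, 6554 to 6988 in young VCAM QSCs and 4568 to 4889 in young YFP QSCs.

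Markers of other cells moved with these groups, although the gate took only Sca1- cells and would remove Sca1+ fibroblasts. Of 10 tenocyte markers 8 rose and 0 fell, with a median of 1.24, and their summed linear intensity was 16645 to 16873 in old QSCs, 6509 to 6845 in young VCAM QSCs and 3489 to 3954 in young YFP QSCs. Angptl7 rose 3.27-fold, Comp 2.38-fold, Mkx 2.35-fold and Tnmd 1.77-fold, and the tendon factor Scx, at 8.20 to 8.32 in old QSCs and 8.19 to 8.31 in young QSCs, overlapped. Of 13 pericyte markers 7 fell and 0 rose, and their sum was 13598 to 13952 in old QSCs, 20641 to 21707 in young VCAM QSCs and 12293 to 12830 in young YFP QSCs. Rgs5 had 11.12, 11.00 and 11.06 in old QSCs, against 11.89, 11.94 and 11.94 in young VCAM QSCs, but 10.40 to 10.45 in young YFP QSCs, and Kcnj8, Abcc9 and Pdgfrb had the same order. Against young YFP QSCs these 4 genes were called higher in old QSCs. Of 14 fibroblast markers 5 rose, among them Pdgfra at 1.94-fold and Dcn at 1.69-fold, and 3 fell, among them Dpt and Col1a1, and the sum was 28088 to 28931 in old QSCs, 30837 to 31403 in young VCAM QSCs and 21173 to 22198 in young YFP QSCs. The part of these cells in the matrix, complement, cytokine and muscle results was not tested.

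**Figure D3:**
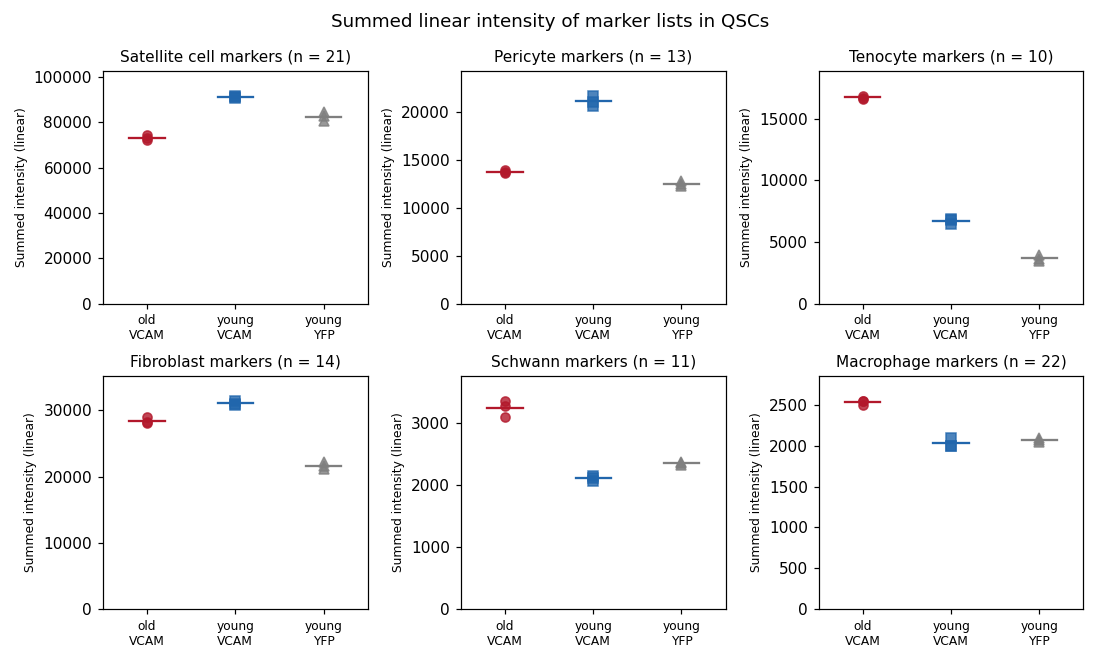
Summed linear intensity (y axis, from 0) of 6 marker lists in old VCAM, young VCAM and young YFP QSCs, with a point per array and a bar for the mean of 3 arrays. Tenocyte markers are highest in old VCAM QSCs (16645 to 16873) and pericyte markers in young VCAM QSCs (20641 to 21707).

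Lists of other cells were followed in the same way. The 11 Schwann cell markers summed to 3107 to 3358 in old QSCs, 2063 to 2143 in young VCAM QSCs and 2323 to 2379 in young YFP QSCs, with the sodium channel gene Scn7a 2.97-fold and Cdh19 1.98-fold higher, while the defining factor Sox10 was at 7.49 to 7.82 in old QSCs and 7.46 to 7.75 in young QSCs. The 22 macrophage markers summed to 2505 to 2550 in old QSCs and 1997 to 2096 in young QSCs, with Cd68 1.96-fold higher and the other 21 not called, and 6 of the 22 lay under a level of 6 in each group. Of 13 neutrophil markers Ngp and S100a9 rose, by 1.63-fold and 1.62-fold, with a sum of 1076 to 1148 in old QSCs and 874 to 949 in young QSCs. No marker of endothelial cells (14), lymphocytes (11), adipocytes (7) or red cells (2) was called. The summed intensity of the satellite cell markers was 72295 to 74364 in old QSCs, 90571 to 91679 in young VCAM QSCs and 80367 to 84299 in young YFP QSCs.

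**Figure D4:**
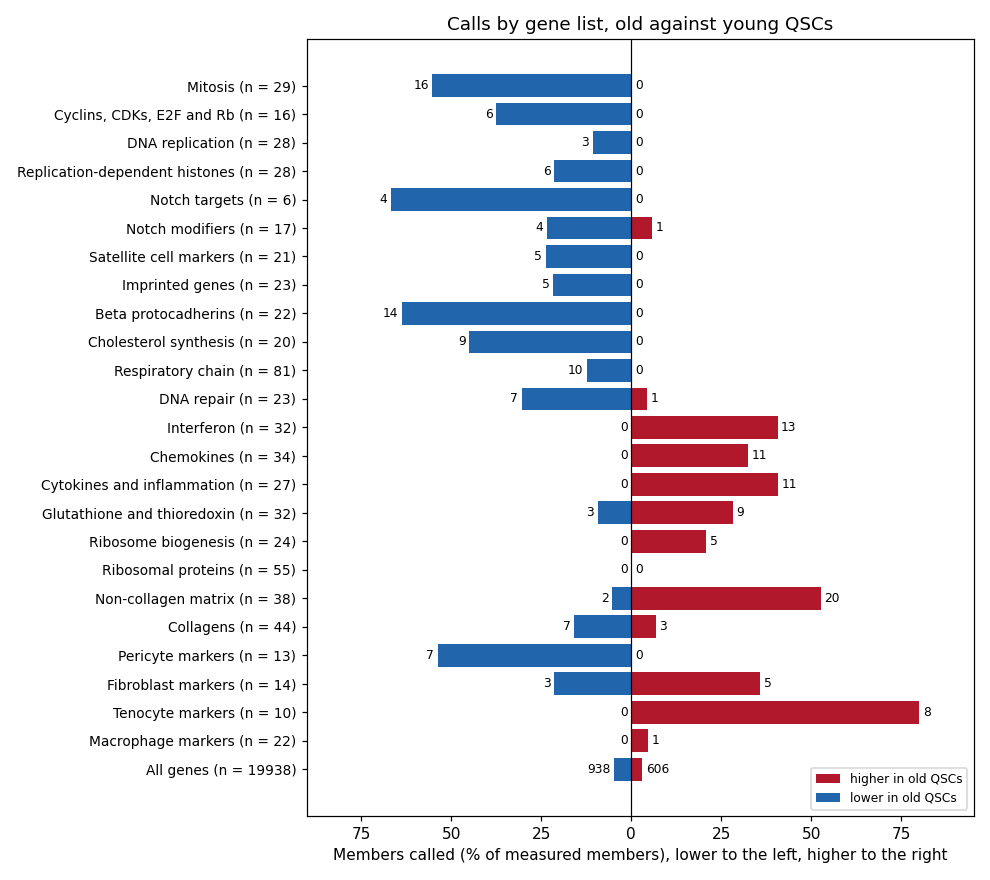
Share of the measured members of each gene list (x axis, %) called lower (blue, left) or higher (red, right) in old against young QSCs, with the number of called genes at each bar end. The last row gives all 19938 genes, of which 938 were lower and 606 higher.

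Among 297 microRNA genes, a group chosen after its values were seen, 13 were higher (4.38%) and 9 lower (3.03%). Over all genes the shares were 3.04% and 4.7%, so the group as a whole stood near them. Several of the microRNA genes that passed lie side by side in the genome. A microRNA binds its targets through its seed, bases 2 to 8 of the mature strand, and a probe set of a microRNA gene measures the transcript of the locus without showing which strand matures. The mature sequences (RefSeq, GRCm38.p6, 5′ to 3′, seed in capitals) show which of the risen genes share a seed.
miR-17-5p: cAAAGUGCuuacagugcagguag
miR-20a-5p: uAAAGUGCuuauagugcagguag
miR-18a-5p: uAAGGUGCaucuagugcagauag
miR-19a-3p: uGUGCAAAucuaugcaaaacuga
miR-19b-3p: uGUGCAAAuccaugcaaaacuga
miR-23a-3p: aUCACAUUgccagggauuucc
miR-27a-3p: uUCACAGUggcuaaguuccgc
miR-24-3p: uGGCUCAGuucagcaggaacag
The first 5 come from the miR-17 cluster on chromosome 14, known for driving proliferation, whose genes from Mir17 to Mir19b-1 lie within 721 bases. miR-17-5p and miR-20a-5p share the seed AAAGUGC, and miR-19a-3p and miR-19b-3p share GUGCAAA. Mir19b-1 had 9.81, 9.81 and 9.63 in old QSCs, against 8.34, 8.48 and 8.49 in young QSCs, 2.49-fold higher, and Mir18, Mir20a, Mir19a and Mir17 were 2.31-fold, 2.12-fold, 2.11-fold and 1.66-fold higher. Mir17hg, named as their host gene, rose 1.72-fold. Young YFP QSCs had 9.36 to 9.49 for Mir19b-1, nearer to the old arrays, and 8.36 to 8.53 for Mir17, at or above the old levels of 8.25 to 8.38. Mir23a, Mir27a and Mir24-2, which lie within 404 bases on chromosome 8, rose 2.26-fold, 2.07-fold and 1.57-fold.

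The fallen microRNA genes included both that lie inside Calcr on chromosome 6.
miR-489-3p: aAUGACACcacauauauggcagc
miR-653-5p: gUGUUGAAacaaucucuacug
They share no seed with each other. Mir653 had 6.74, 6.69 and 6.67 in old QSCs, against 8.03, 8.23 and 8.29 in young QSCs, 2.79-fold lower, and Mir489, which keeps satellite cells at rest, had 6.92, 6.67 and 6.60 in old QSCs, against 7.60, 7.90 and 7.73 in young QSCs, 2.01-fold lower. Their host Calcr was 1.78-fold lower. Young YFP QSCs had 6.55 to 6.91 for Mir489, so the old arrays overlapped them. Mir379, Mir411 and Mir496a, of the imprinted cluster on chromosome 12 that also holds Rian, were 1.73-fold, 1.69-fold and 1.67-fold lower.

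Cells activated by injury gave an independent set of old and young arrays. At 60 h, 947 genes were higher (4.75%) and 131 lower (0.657%) in old ASCs against young ASCs. Of the 606 genes higher in old QSCs, 215 were also higher at 60 h (35.5% of the QSC list and 22.7% of the 60 h list) and 2 were lower. Of the 938 genes lower in old QSCs, 28 were also lower at 60 h (2.99% of the QSC list and 21.4% of the 60 h list) and 41 were higher. The difference between the effects at rest and at 60 h was itself called for 430 genes (2.16%), where the effect at rest was the more positive, and for 1358 genes (6.81%), where it was the more negative. It was called in the direction of the rest effect for 225 of the 606 risen genes (37.1%) and 528 of the 938 fallen genes (56.3%).

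Inflammatory, interferon and matrix genes stood higher in old cells at both times. At 60 h 18 of the 32 interferon genes, 19 of the 34 chemokines, 16 of the 27 cytokine genes and 27 of the 38 non-collagen matrix genes were higher, and none of these lists had a fall. C7 differed by 2.28 at rest and 2.56 at 60 h, Il6 by 1.46 and 1.97, Serpina3n by 2.03 and 2.33 and Prg4 by 1.85 and 1.80 (log2, old minus young). Notch targets and cholesterol genes gave no call at 60 h. There 0 of the 6 Notch targets and 0 of the 20 cholesterol genes were called, and the difference between the times was called for 4 and 12 of them. For mitosis 4 of 29 were lower at 60 h, with a median of -0.40, and the difference was called for 7 as more negative at rest and 1 as more positive. Macrophage markers showed the reverse, with 1 of 22 higher at rest and 21 of 22 at 60 h, and 20 of the 22 differed between the times. Markers of other cells were also higher in old ASCs at 60 h, in 8 of 10 tenocyte, 8 of 14 fibroblast, 9 of 14 endothelial and 7 of 13 pericyte genes. The part of RNA from these cells in the 60 h results was not tested.

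**Figure D5:**
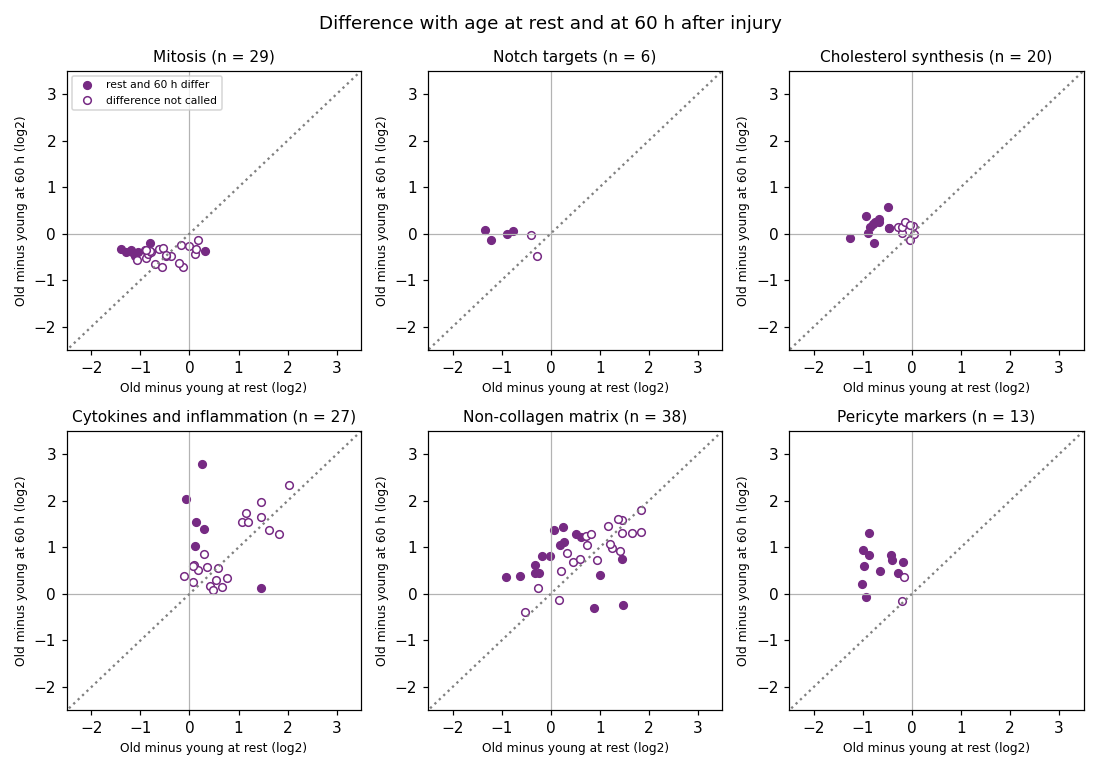
Difference between old and young VCAM cells at rest (x axis, log2) and at 60 h after injury (y axis, log2) for the members of 6 gene lists, with a point per gene, filled where the difference between the times was called, and a dotted line where both are equal. Notch targets and cholesterol genes spread to the left of 0 at rest and lie near 0 at 60 h, and 7 mitosis genes are more negative at rest.

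Genes called with age were set against genes called in activation, from young YFP cells that share no array with them. At 36 h, 2021 genes were higher (10.1%) and 1225 lower (6.14%) than in YFP QSCs. Of the 938 genes lower in old QSCs, 261 were higher at 36 h (27.8% of the age list and 12.9% of the 36 h list) and 124 were lower (13.2% and 10.1%). Of the 606 genes higher in old QSCs, 121 were higher at 36 h (20% and 5.99%) and 132 were lower (21.8% and 10.8%). With young YFP QSCs as the young set, which are then also the resting cells of the 36 h comparison, 62 of the 354 genes lower with age were higher at 36 h. The 261 genes included Ccnd1, Cdk4, Top2a and H1f5, while the Notch targets Heyl, Hes1 and Hey1 were lower both in old QSCs and at 36 h.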

How the data were processed

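Quiescent satellite cells were sorted from digested hindlimb muscle, and total RNA was labelled and hybridised to 1 array per sample. The authors deposited log2 values for 35556 probe sets, made with Affymetrix Expression Console and RMA (background correction, quantile normalization and summary of probes), with versions not given in the sources used here. Because RMA sets all arrays to 1 distribution, a change in total RNA per cell does not show, and log2 differences of dim probes are understated. The 21789 probe sets that the platform annotation gives 1 gene were reduced to 19938 genes by the brightest probe set, and 998 genes had several. Symbols were updated through RefSeq where the gene identifier matched. The number of arrays limits the precision, since 3 arrays against 3 cannot give a permutation p under 0.10 for a single gene.

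All 30 arrays entered 1 fit of 10 group means in limma 3.58.1 under R 4.3.3 (eBayes, two-sided, 20 residual degrees of freedom), with Benjamini-Hochberg adjustment over all 19938 genes. Contrasts were old minus young QSCs, old minus young ASCs at 60 h, the difference of these, and 36 h minus rest in YFP cells. Simulated arrays with known changes were used to check the code. Genes named were the 12 largest rises and falls, up to 4 called and 2 other members of each list, genes the study followed, and markers of other cells. The genes compared, the lists and this rule were chosen with earlier results of these data known. Marker sums are sums of 2 raised to the log2 value. Alternatives covered scaling, a filter on dim genes, the arrays fitted, the variance model, the probe set rule, the thresholds, a replicate block, each array left out and the young YFP reference.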

Additional observations from a re-analysis of the deposited data

Results flagged for a closer look

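The genes named above whose difference with age was itself different between rest and 60 h, by at least 2-fold and at a limma adjusted p under 0.05, are given here as the log2 effect at rest minus the log2 effect at 60 h. Negative values mark a more negative difference between old and young cells at rest.

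Markers of satellite cells and Notch genes were more negative at rest, with Chodl at -2.51, Calcr at -1.83, Heyl at -1.42, Dtx4 at -1.31, Hes1 at -1.08 and Psen2 at -1.06. For Calcr and Chodl the direction was opposite, since old ASCs at 60 h were higher than young ASCs by 1.00 and 1.81. The microRNA genes inside Calcr moved with it, Mir489 at -1.61 and Mir653 at -1.58.

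Cell cycle and histone genes included Ccnd1 at -1.40, H4c4 at -1.29 and Racgap1 at -1.07, and with them Nudcd2 at -1.44, Tet1 at -1.08, Trp53inp1 at -1.43 and Sesn1 at -1.03. Imprinted genes were more negative at rest, with Rian at -2.13, Mest at -1.38 and Copg2 at -1.13, as were Mir379 at -1.13 and Mir411 at -1.09 of the Rian cluster. Pcdhb10 was at -1.07.

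Lipid genes gave Lss at -1.32, Scd2 at -1.28, Nsdhl at -1.17, Scd1 at -1.02 and Hmgcs1 at -1.01, and Prdx2 was at -1.01. Markers of pericytes and fibroblasts and matrix genes gave Dpt at -2.26, Rgs5 at -2.17, Abcc9 at -1.94, Pdgfrb at -1.71, Ndufa4l2 at -1.57, Kcnj8 at -1.22, Acta2 at -1.14, Col3a1 at -1.72, Sparc at -1.26 and Col1a1 at -1.21. Signals and receptors gave Igf1 at -2.25, Edn3 at -1.88, Nppc at -1.34, Lpar4 at -1.28 and Inhba at -1.02. Muscle genes gave Casq2 at -1.81, Popdc2 at -1.36 and Pygm at -1.20.

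Mmp3 and genes of blood and vessel cells, all called higher in old ASCs at 60 h, were more negative at rest, with Mmp3 at -2.19, Ptprc at -1.57, Cd74 at -1.48 and Pecam1 at -1.14. Of the other genes, Art3 was at -2.30, 9330159F19Rik at -2.14, Ppp1r14a at -1.82, Snord14e at -1.74, Lix1 at -1.69, Egr2 at -1.46 and Zfp931 at -1.23.

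Fewer named genes were more positive at rest. They were Tac1 at 2.13, Igkv4-91 at 2.10, Has2 at 1.71, Trank1 at 1.66, Gdnf at 1.33, Cyp26a1 at 1.32, Col8a1 at 1.29, Lgr5 at 1.25 and Me1 at 1.01. Genes of the miR-17 cluster followed the same direction, Mir18 at 1.37, Mir19b-1 at 1.27, Mir19a at 1.17 and Mir20a at 1.13.

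Xist had a mean level of 11.39 in young YFP QSCs, outside the main comparison, while old and young VCAM QSCs did not exceed 5.36.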

How the results depend on the processing

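The count of genes called in old against young QSCs depended on the thresholds and the young cells used. By the adjusted p alone it was 3323 higher and 4248 lower, at a fold of at least 2 it was 152 and 129, over all probe sets 1061 and 1581, and against young YFP QSCs 373 and 354. At 60 h the adjusted p alone gave 2837 higher and 2731 lower, and a fold of at least 2 gave 395 and 12. The difference between rest and 60 h gave 2518 and 3731 by the adjusted p alone, 61 and 431 at a fold of at least 2, and 646 more positive at rest under quantile normalization. Against young YFP QSCs, which then share arrays with the 36 h comparison, 62 genes were lower with age and higher at 36 h. Leaving out 1 array in turn gave 575 to 656 higher and 882 to 1074 lower genes at rest.

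Against young YFP QSCs 17 of the 185 called genes named here changed sign and 84 lost their call. The differences that changed sign (log2, old minus young YFP) were 1.10 for Pdgfrb, 0.81 for Col1a1, 0.79 for Abcc9, 0.72 for Kcnj8, 0.62 for Rgs5, 0.28 for Actn3 and for Dbp, 0.16 for Fads2, 0.15 for Art3, 0.14 for Ndufa4l2, 0.07 for Pygm, 0.02 for Mir489 and for Slc38a4, -0.03 for Serpina3n, -0.12 for Mir17, -0.53 for Rad18 and -1.72 for P2ry14. The cause was not tested.

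Leaving out 1 array ended the call of 10 named genes near the fold threshold and reversed 0. Without old array 1 Mymk was at -0.55. Without old array 2 H1f1 was at -0.56, Rapsn at -0.54, Six4 at -0.55 and Maml2 at 0.58. Without old array 3 Ciart was at 0.52, Nr4a2 at 0.58 and Ccng1 and Ier2 at -0.56. Without young array 1 Dbp was at -0.57, Maml2 at 0.56 and Nr4a2 at 0.58. Without young array 2 Ccng1 was at -0.54, Ier2 and Six4 at -0.57 and Maml2 at 0.58. Without young array 3 Mymk was at -0.58. Pax7 reached -0.60 without young array 1 and Hfe -0.59 without old array 2, and both were then called. Quantile normalization ended 5 calls, those of Ccng1, Dbp, Ier2, Rapsn and Six4.

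The replicate numbers did not pair the arrays. Same-numbered old and young arrays had deviations that correlated at -0.255, 0.00496 and -0.0659, and with the replicate number as a block the counts were 606 and 938, as without it. Signal over background sets the limit for dim genes, since 24.7% of all genes lay under a level of 6 in young QSCs.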

Other observations

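Other groups of genes, chosen after their values were seen, gave these counts in old against young QSCs. Over all genes 3.04% were higher and 4.7% lower. Of 347 genes with a Zfp symbol, most of which encode zinc finger proteins, 40 were lower (11.5%) and 3 higher (0.865%), with a median difference of -0.16 against 0.02 over all genes. Of 53 small nucleolar RNA genes 5 were higher (9.43%) and 4 lower (7.55%). Snord14e, which lies within the heat shock gene Hspa8, had 11.39, 11.34 and 11.43 in old QSCs, against 12.70, 12.64 and 12.75 in young QSCs, 2.48-fold lower, while its host had 14.08, 14.04 and 13.99 in old QSCs, against 14.12, 14.13 and 14.11 in young QSCs.

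The called genes differed from the rest in level and in length. Genes higher in old QSCs had a median level of 9.02 in old QSCs and 8.16 in young QSCs, and genes lower in old QSCs had a median of 8.82 in young QSCs, against 7.29 in old QSCs and 7.31 in young QSCs over all genes. The median span from start to end in GRCm38.p6 was 34503 bases for the risen genes and 24452 bases for the fallen ones, against 17738 bases over the 19856 genes with a span.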
